A study of Drosophila melanogaster with 4 samples.

Results

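The spalt genes salm and salr and the snail family genes esg, wor and sna lie in H3K27me3-marked stretches of chromosome arm 2L of Drosophila melanogaster. These 5 zinc-finger genes were studied through the clusters, or regions of significant enrichment, that overlap 2 windows of FlyBase release 5. The spalt window ran from 11270000 to 11500000, and the snail family window from 15270000 to 15510000. A domain here is the run of all clusters in a window, with the gaps between them. In every list sna lay in a cluster apart from esg and wor, with a gap of 5980 to 6699 bp between wor and sna. Together the windows held 44 of the 2510 clusters of the replicate 1 list, 6 of the 1819 clusters of the replicate 2 list and 7 of the 4966 clusters of the combined list. The members were chosen by the width and coverage of their clusters in these same lists. The width, coverage, scores and gaps given here are therefore a description, and no test was made on them.

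H3K27me3 was profiled by chromatin immunoprecipitation and sequencing (ChIP-seq) in whole larvae at the third instar, the last larval stage. The flies were wild type, of the strain Oregon-R, with no mutation, transgene or treatment in any library, and a mouse monoclonal antibody from Abcam was used. Of 4 libraries, 2 were H3K27me3 ChIP and 2 were input DNA. Each ChIP library had a deposited cluster list, and a further list was deposited for the series as a whole. Whether the replicates came from separate batches of larvae is not said in the labels, and their spread may be technical. Whole larvae mix many tissues, and a mark in fewer cells cannot be told apart from less of the mark in each cell. The read depth behind the lists is unknown.

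H3K27me3 is written by the Polycomb repressive complex that holds the enzyme Enhancer of zeste, and it spreads over developmental genes that are kept silent. The spalt genes encode C2H2 zinc-finger transcription factors. They pattern the wing disc downstream of the Dpp signal, and act in the trachea, the eye and sense organs. Snail family genes also encode C2H2 zinc-finger factors, mostly repressors of transcription. Escargot (esg) maintains imaginal cells and intestinal stem cells, worniu (wor) acts in neural stem cells called neuroblasts, and snail (sna) specifies the mesoderm and acts in neuroblasts.

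All 5 genes lay wholly inside clusters in every list. The genes were placed with the RefSeq table of release 6, taking its 2L positions as release 5 positions, an assumption built into the choice of the windows. Salm (NCBI Gene 34569), salr (34568), esg (34903), wor (34906) and sna (34908) each had 100% of their length in clusters of replicate 1, of replicate 2 and of the combined list. Over all 3496 RefSeq genes of arm 2L that fall within the release 5 arm, 7.87% had 50% or more of their length in replicate 1 clusters. The share was 9.50% for replicate 2 and 13.2% for the combined list. The members were chosen for being marked, so their count is given beside this background without being read against it. Salm, salr, esg and wor remained 100% covered in each list when gene positions were moved by 1 or 5 kb to either side. The exception was sna in replicate 1, which had 92.6% covered with a move of 1 kb to lower positions and 100% with 1 kb to higher positions. With a move of 5 kb it had 16.4% covered at lower positions and 19.7% at higher positions.

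In the spalt window, salr and salm shared 1 cluster in each list. This cluster ran from 11333355 to 11470203 in replicate 1, with a width of 136.8 kb. It ran from 11316778 to 11484595 in replicate 2 (167.8 kb) and from 11316688 to 11484907 in the combined list (168.2 kb). The 60.7 kb between the genes held no other protein-coding gene and 1 long noncoding RNA gene, and was 100% covered in all 3 lists. Around both genes, 20 kb of flanking sequence on each side was also 100% covered in all 3 lists.

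The score deposited with each cluster has no stated unit, so it was compared only between clusters of the same list. The cluster that holds salr and salm had a score of 1.40 in replicate 1, above 95.5% of the clusters of that list. Its score was 2.16 in replicate 2, above 95.2% of clusters, and 1.80 in the combined list, above 97.4%. In each list it scored highest of the clusters in the spalt window.

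**Figure D1:**
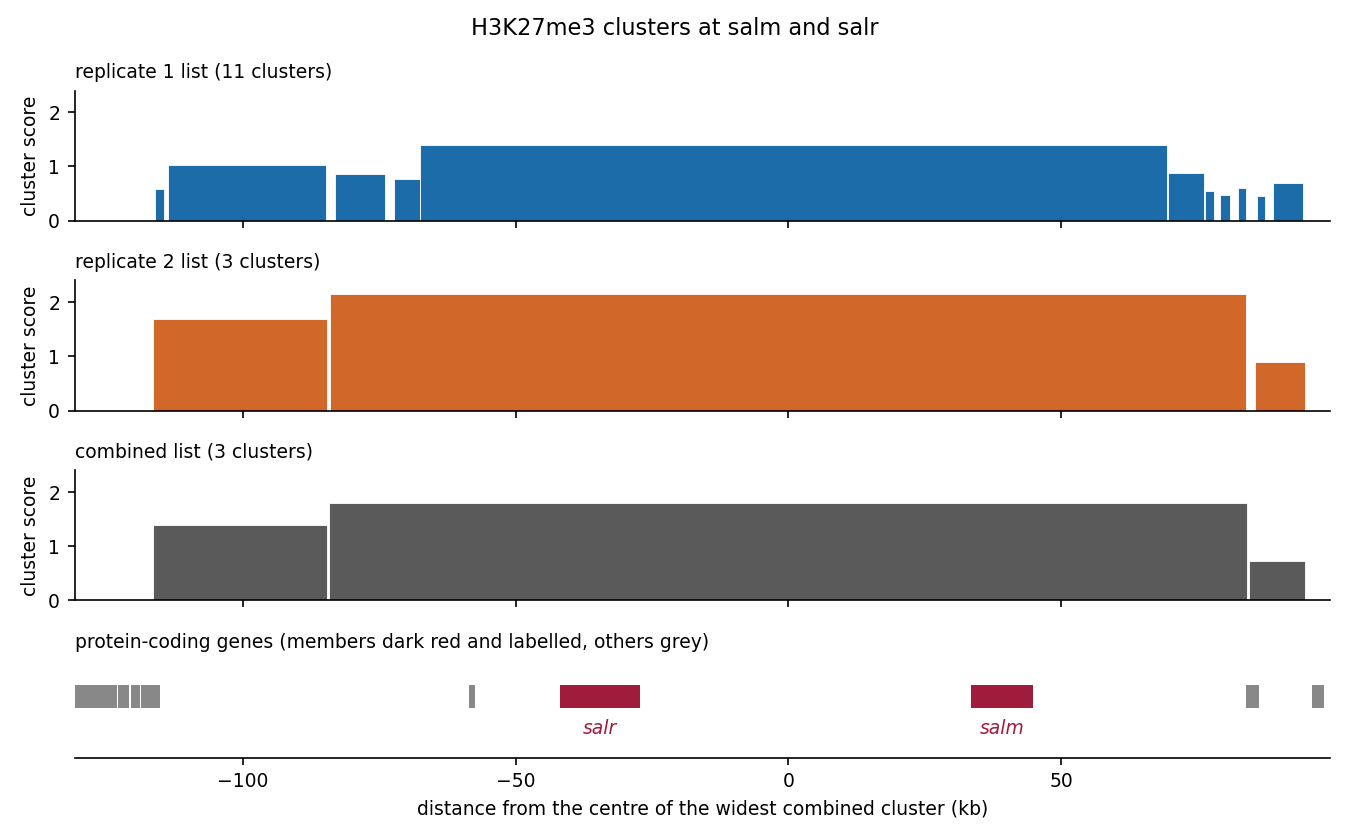
Clusters of the spalt window in the replicate 1, replicate 2 and combined lists, drawn as bars whose width is the cluster and whose height is its score, which has no unit and is not comparable between lists. The horizontal axis is distance in kb from the centre of the widest combined cluster, and the lowest row shows protein-coding genes placed by release 6 positions. One wide cluster spans salr and salm in each list, and narrower clusters stand on both sides of it in every list, in more pieces in replicate 1.

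The whole spalt domain was made of 11 clusters in replicate 1, 3 in replicate 2 and 3 in the combined list. Clusters covered 86.8% of the window in replicate 1 and 90.8% in replicate 2, a mean of 88.8% ± 2.82 (SD, n = 2), and 91.5% in the combined list. Arm 2L as a whole, windows included, was covered to 11.3%, 13.6% and 17.7% in these lists. The outer edges of the domain were at 11284746 and 11495151 in replicate 1, at 11284412 and 11495458 in replicate 2, and at 11284332 and 11495519 in the combined list. The 3 lists thus placed the left edge within 414 bp and the right edge within 368 bp. Inside these edges, 94.9% of the span was covered in replicate 1 and 99.0% in replicate 2.

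Replicate 1 clusters of 5 kb or more in this domain numbered 5. Besides the one over both genes they were 29.0, 9.10, 6.53 and 5.57 kb wide, and the 29.0 kb cluster scored 1.02, above 91.1% of its list. The 6 other pieces were 1384 to 4841 bp wide. Replicate 1 left 10 gaps of 30 to 2088 bp, 10.7 kb in all. Replicate 2 filled 8 of the 10 completely and the other 2 in part.

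A pair of gaps in the spalt domain stayed free of clusters in both replicates. The left one ran from 11316232 to 11316777, a length of 546 bp, and the combined list filled 16.5% of it. The right one ran from 11484596 to 11486258, a length of 1663 bp, of which the combined list filled 85.7%. The spalt-adjacent gene sala (34570) and CG43355, which have the same extent in the table, reach into this right gap. They had 12.4% of their length covered in replicate 1, 30.8% in replicate 2 and 89.4% in the combined list.

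The snail family domain was split differently in the replicates. Clusters covered 62.2% of its window in replicate 1, in 33 pieces, and 88.3% in replicate 2, in 3 pieces. The mean was 75.3% ± 18.5 (SD, n = 2), and the combined list covered 90.4% in 4 pieces. Every base of replicate 1 clusters lay inside replicate 2 clusters in both windows. The length in both replicates was therefore 70.4% of the length in either in the snail family window, and 95.6% in the spalt window. Replicate 2 alone covered 62.7 kb of the snail family window and 9.17 kb of the spalt window.

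The 3 snail family genes sat in separate clusters in replicate 1. The esg cluster ran from 15324476 to 15347650 (23.2 kb) and scored 1.41, above 95.6% of its list. The wor cluster ran from 15408501 to 15443182 (34.7 kb) and scored 1.22, above 93.7%. The sna cluster ran from 15476506 to 15481921, was only 5.42 kb wide, and scored 0.769, above 74.2%. These were 3 of the 6 replicate 1 clusters of 5 kb or more in the window, the others being 9.79, 6.93 and 5.96 kb wide and lying between esg and wor. Over all 33 pieces the median width was 2231 bp, and 16 pieces scored at or above the median of the list.

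In replicate 2 and in the combined list esg and wor shared a cluster and sna had its own. The esg and wor cluster ran from 15288193 to 15446888 in replicate 2 (158.7 kb) and from 15287729 to 15447003 in the combined list (159.3 kb). Its score of 1.65 in replicate 2 was above 92.0% of clusters, and its combined score of 1.33 was above 95.7%. The sna cluster ran from 15453042 to 15497888 in replicate 2 (44.8 kb) and from 15452984 to 15497865 in the combined list (44.9 kb). It scored 0.985 in replicate 2, above 84.3% of clusters, and 0.790 in the combined list, above 92.1%. In all 3 lists the cluster at sna ranked below those at esg and wor.

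**Figure D2:**
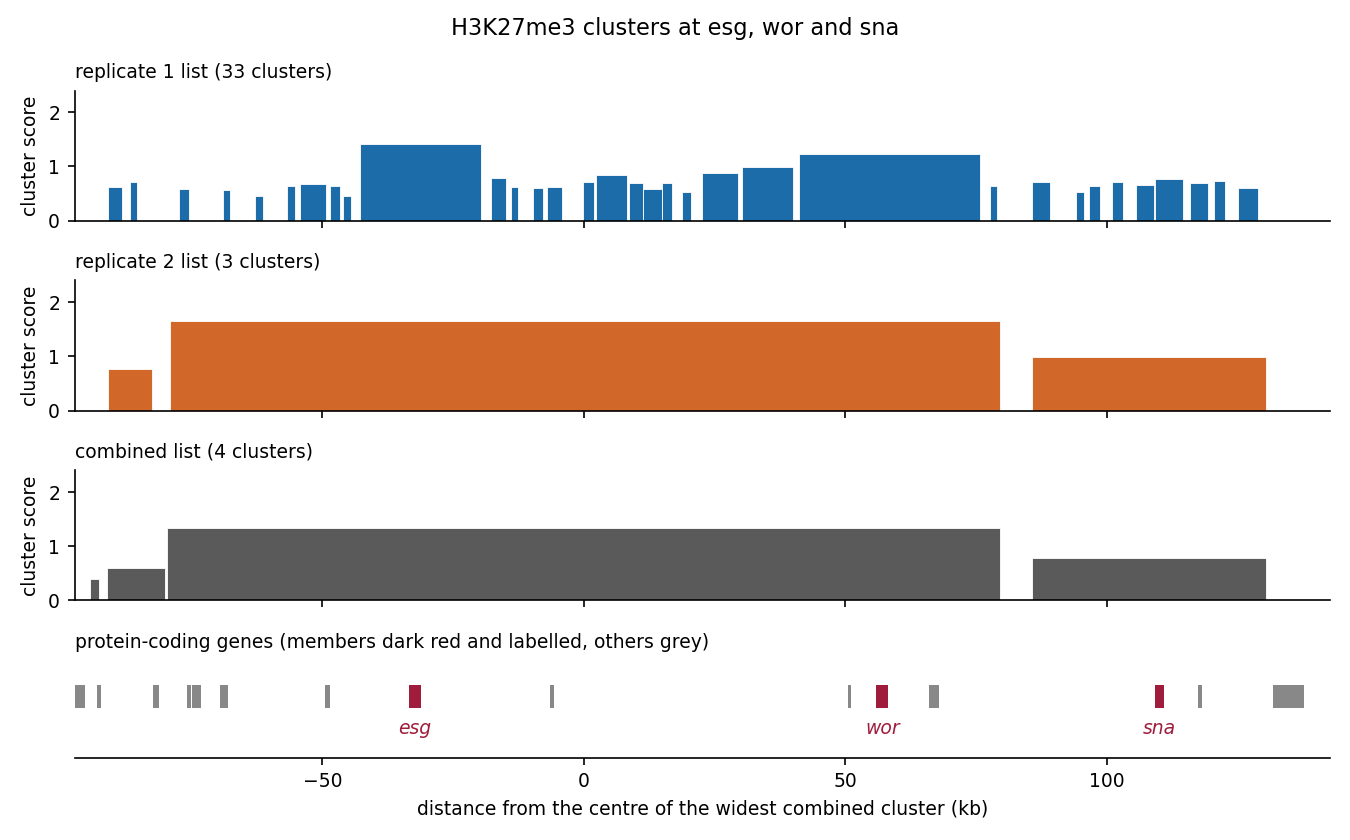
Clusters of the snail family window in the replicate 1, replicate 2 and combined lists, drawn as bars whose width is the cluster and whose height is its score, which has no unit and is not comparable between lists. The horizontal axis is distance in kb from the centre of the widest combined cluster, with protein-coding genes placed by release 6 positions in the lowest row. Replicate 1 has 33 pieces with the widest at esg and wor, while the other lists have a wide cluster over esg and wor and a separate one over sna.

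The gap between the wor side and the sna side was open in all 3 lists. It ran from 15446416 to 15453114 in replicate 1 (6699 bp), from 15446889 to 15453041 in replicate 2 (6153 bp) and from 15447004 to 15452983 in the combined list (5980 bp). This gap lay in the 51.0 kb between wor and sna, of which 61.7% was covered in replicate 1 and 87.9% in replicate 2. The 87.2 kb between esg and wor was covered to 80.3% in replicate 1 and 100% in replicate 2. A second gap free of clusters in both replicates ran from 15284735 to 15288192 near the left edge. It was 3458 bp long, and the combined list filled 88.9% of it. CG15263 had 0% covered in both replicates and 100% in the combined list, the only protein-coding gene of either window with this pattern.

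The remaining breaks in replicate 1 were not seen in replicate 2. Replicate 1 had 32 gaps of 57 to 7995 bp between its pieces, 70.6 kb in all, with a median of 1545 bp. Replicate 2 filled 30 of the 32 completely and the other 2 in part, 61.0 kb altogether. The longest replicate 1 gap, from 15281885 to 15289879, was one of the 2 filled in part, at 56.7%. Within the combined cluster that holds esg and wor, replicate 1 left 41.2 kb uncovered and replicate 2 left 0.579 kb. Within the combined cluster that holds salm and salr, the lengths were 6.19 kb in replicate 1 and 0.402 kb in replicate 2.

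Despite these breaks the outer edges differed little between the replicates. On the left the domain began at 15276411 in replicate 1 and at 15276289 in replicate 2, 122 bp apart. On the right it ended at 15496244 and 15497888, 1644 bp apart. The combined list ended at 15497865 and began at 15272993, because it had one more narrow cluster of 1590 bp just inside the window. Next to it but outside the window, the combined list had a cluster of 1344 bp with a score of 0.416, 17.7 kb from the window's left end. The narrow cluster inside scored 0.391. The nearest replicate 1 cluster outside was 17.3 kb away, and the nearest in replicate 2 was 69.4 kb away on the right. At the spalt window the nearest clusters outside were 43.7 to 74.8 kb away on the left and 76.3 to 454.2 kb away on the right.

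In the distance classes used, replicate 1 coverage of the snail family domain was highest close to the genes, which were themselves chosen for being marked. Within the outer edges of the combined list, 100% of the member genes, 87.6% of the sequence up to 10 kb from the nearest of them and 66.4% at 10 to 20 kb were covered. The share was 53.5% at 20 to 40 kb and 46.0% at 40 to 80 kb. Replicate 2 covered 100% up to 20 kb, 91.3% at 20 to 40 kb and 75.9% at 40 to 80 kb. The 20 to 40 kb class held the gap between the wor side and the sna side. The 40 to 80 kb class took in the left end of the domain, with the gap near its left edge. Both gaps were free of clusters in both replicates. Whether coverage fell with distance from the genes apart from these places was not tested. In the spalt domain replicate 1 covered 100% up to 20 kb, 90.4% at 20 to 40 kb and 87.2% at 40 to 80 kb, and replicate 2 never fell under 97.0%. The distance classes were set after the lists had been examined.

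**Figure D3:**
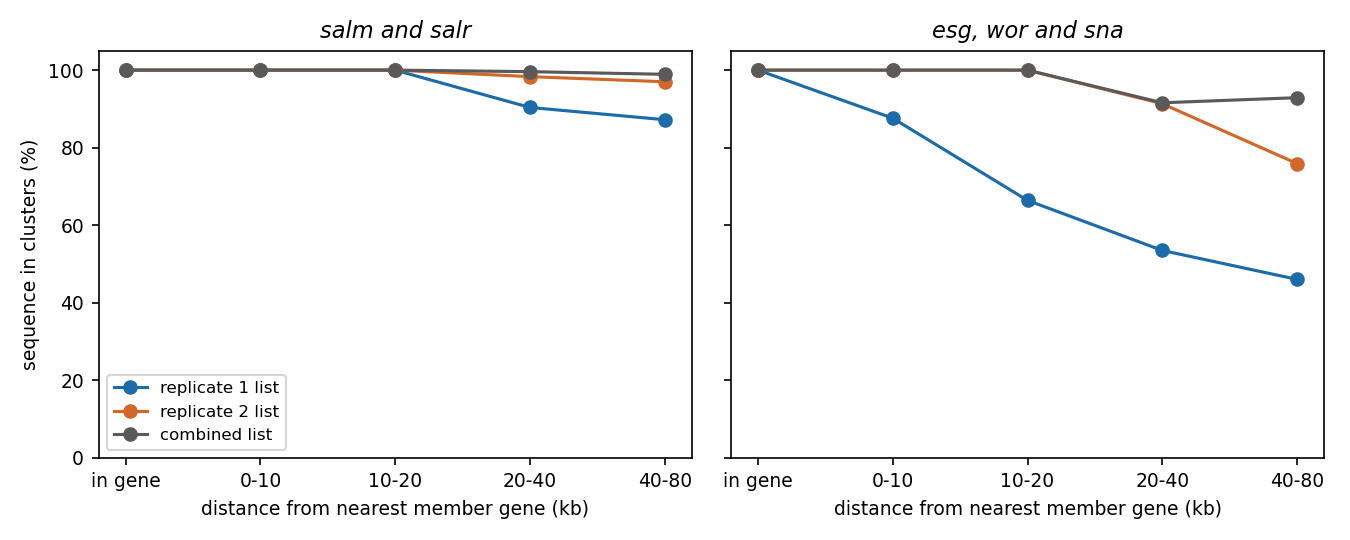
Percent of sequence inside clusters (vertical axis) by distance in kb from the nearest member gene (horizontal axis), within the outer edges of the combined list, for the spalt domain (left) and the snail family domain (right). Lines join the values of each list. At esg, wor and sna the replicate 1 values go from 100% in the genes to 46.0% at 40 to 80 kb, while at salm and salr they stay at 87.2% or more.

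The genes differed in how far replicate 1 coverage reached. With 10 kb of flank on each side, replicate 1 covered 97.3% around esg, 100% around wor and 68.5% around sna. With 20 kb the values were 82.8% for esg, 93.3% for wor and 57.4% for sna. Replicate 2 covered 100% around esg and wor at both distances, and 100% and 99.1% around sna. The end of sna at the lower position lay 0.087 kb from the left end of its replicate 1 cluster. In replicate 2 this distance was 23.6 kb. Strand being unknown, this end of sna need not be the start of the gene. Both distances rest on gene positions whose match to the release of the lists was not tested.

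Genes beyond the outer edges of both domains were unmarked, and those at the edges were covered to differing extents. Cana, Cog8, Cul3 and lace lay wholly outside the outermost clusters, so their 0% follows from where the edges were set. In the combined list the first genes beside the widest clusters had 99.6% (Osi21), 100% (CG15263 and sna) and 0% (Cog8). Mre11, a nuclease of DNA break repair, had 0% covered in both replicates and 0.178% in the combined list, while its neighbour Osi21, of the Osiris family, had 69.6% in replicate 1 and 93.8% in replicate 2. Cog8, which encodes a subunit of a Golgi tethering complex, had 0% in all 3 lists at the right edge. At the snail family domain, Cul3, a scaffold of ubiquitin ligases, and lace, a subunit of serine palmitoyltransferase, had 0% in all 3 lists. UK114, next to Cul3, had 0% in both replicates and 44.1% in the combined list. The kinesin gene cana, at the left end of the spalt window, was also at 0% in all 3 lists. Mre11 and UK114, and nht, Tim17b2 and CG14926 given next, were picked after their values had been seen.

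Other genes of the windows were covered in part along with the members. The counts take in every gene that overlaps a window, also those outside the outermost clusters. In the snail family window, 12 protein-coding genes were not members, and 5 of them had 50% or more of their length covered in replicate 1, 8 in replicate 2 and 9 in the combined list. Tim17b2, a mitochondrial import gene beside sna, was 100% covered in all 3 lists. The testis gene nht had 10.2% covered in replicate 1 and 100% in replicate 2, and ms(2)35Ci had 0% and 100%. CG15260 had 49.5% in replicate 1 and CG15262 had 67.1%, and both had 100% in replicate 2. In the spalt window, 2 of 9 protein-coding genes other than the members, Osi21 and CG14926, had 50% or more covered in each replicate, and 4 of 9 did in the combined list. Long noncoding RNA genes were covered over 50% or more in 8 of 8 cases in the spalt window in both replicates. In the snail family window, 10 of 13 were in replicate 1 and 13 of 13 in replicate 2. Over all RefSeq genes of arm 2L the share was 7.87% in replicate 1, 9.50% in replicate 2 and 13.2% in the combined list. No such share was computed for coding or long noncoding RNA genes alone. The windows were chosen for their coverage, so these counts are not read against that background.

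**Figure D4:**
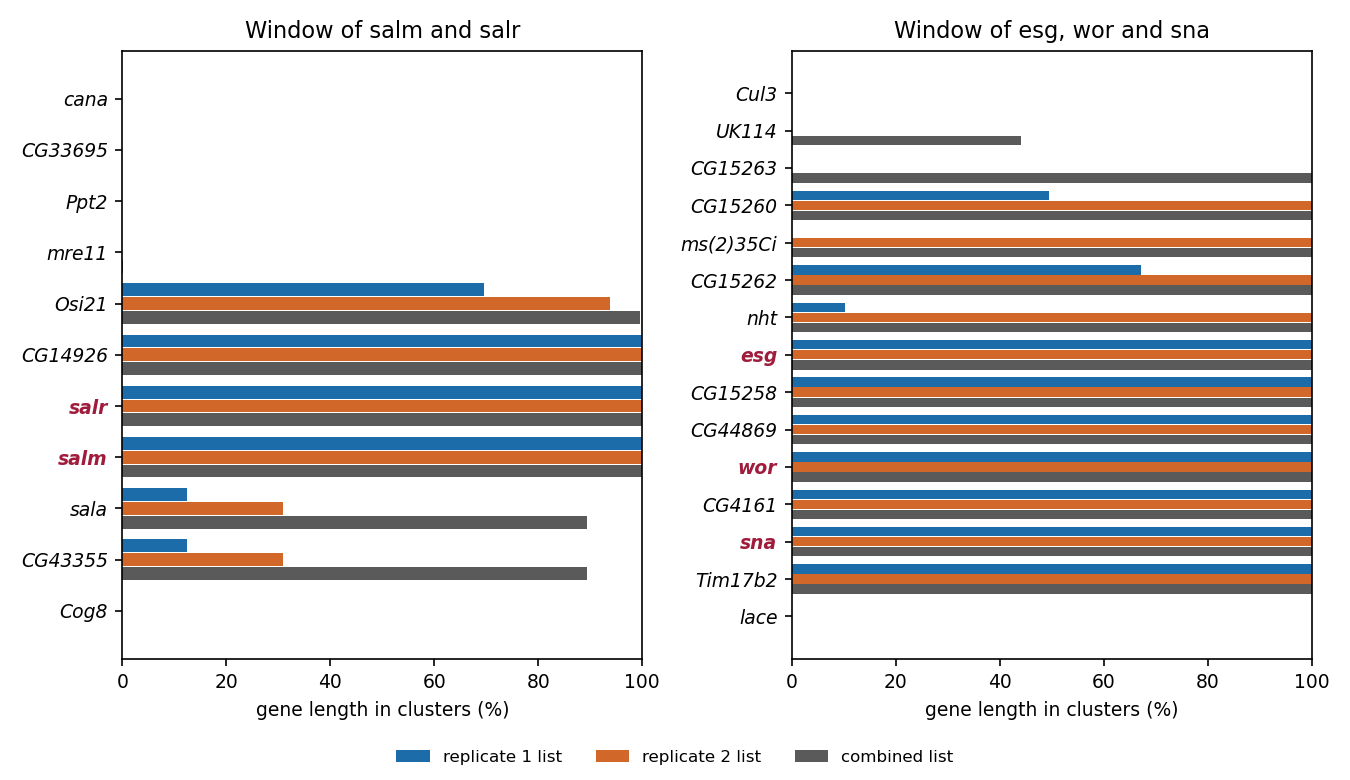
Percent of each protein-coding gene's length inside clusters (horizontal axis) in the replicate 1, replicate 2 and combined lists, for the window of salm and salr (left) and the window of esg, wor and sna (right), in the order of the genes along the arm. The 5 member genes, in dark red, reach 100% in every list. Genes at the window ends such as cana, Cog8, Cul3 and lace stay at 0%.

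Among other listed genes of arm 2L some were marked and others were not. The lists were chosen with earlier results known. Over all RefSeq genes of the arm, 7.87% had 50% or more of their length covered in replicate 1. The share was 9.50% in replicate 2 and 13.2% in the combined list. Of the Dpp pathway genes dpp, tkv and Mad, 1 of 3 had 50% or more of its length covered in each list. The ligand gene dpp had 73.2% in replicate 1 and 87.1% in replicate 2, the receptor gene tkv had 0% and 5.84%, and Mad, which encodes the signal transducer, had 0% in both. Of 5 genes that act in neuroblasts or mesoderm, the POU factor genes nub and pdm2 had 100% in each list, while dl (the embryo's dorsal-ventral factor), numb (a cell fate determinant) and CycE (cyclin E) had 0%. Of 4 other zinc-finger genes, all of the odd-skipped family, odd, drm and sob had 100% in each list and bowl had 0%. The broadly expressed ribosomal protein and translation factor genes RpL9, RpL13, RpL30, RpS26, RpL24 and eIF4A were at 0% in all 3 lists.

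Among broad domains the esg and wor cluster was one of the most broken up in replicate 1, and the spalt cluster was near the middle. The combined list had 68 clusters of 50 kb or more, in which the spalt cluster ranked 4 and the esg and wor cluster ranked 8 by width. Replicate 1 covered 96.3% of the spalt cluster and 74.1% of the esg and wor cluster, with a median of 95.7% over the 66 others. The largest replicate 1 piece made up 81.4% of the spalt cluster and 21.8% of the esg and wor cluster, and a median of 72.3% of the others. Replicate 1 had 4.16 pieces per 100 kb in the spalt cluster and 13.8 in the esg and wor cluster, against a median of 4.02 and a range of 0.838 to 25.4 in the others. By this count the esg and wor cluster ranked 5 of 68 and the spalt cluster 35 of 68. Replicate 2 had 1 piece in both clusters, and a median of 1 in the others.

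Broad clusters of lower combined score tended to be less covered in replicate 1. The Spearman correlation of combined score with replicate 1 coverage was 0.77 over the 68 clusters. It is a description across regions that share the same libraries, and the combined list is not independent of replicate 1. By score the spalt cluster ranked 39 of 68 and the esg and wor cluster 57 of 68. The 10 other clusters nearest in score to the esg and wor cluster had a median replicate 1 coverage of 81.8%, ranging from 68.1% to 92.9%, and 1 of them was below its 74.1%. The 10 nearest to the spalt cluster had a median of 94.8%, and 9 of them were below its 96.3%. The part of read depth in the split of the snail family domain was not tested.

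**Figure D5:**
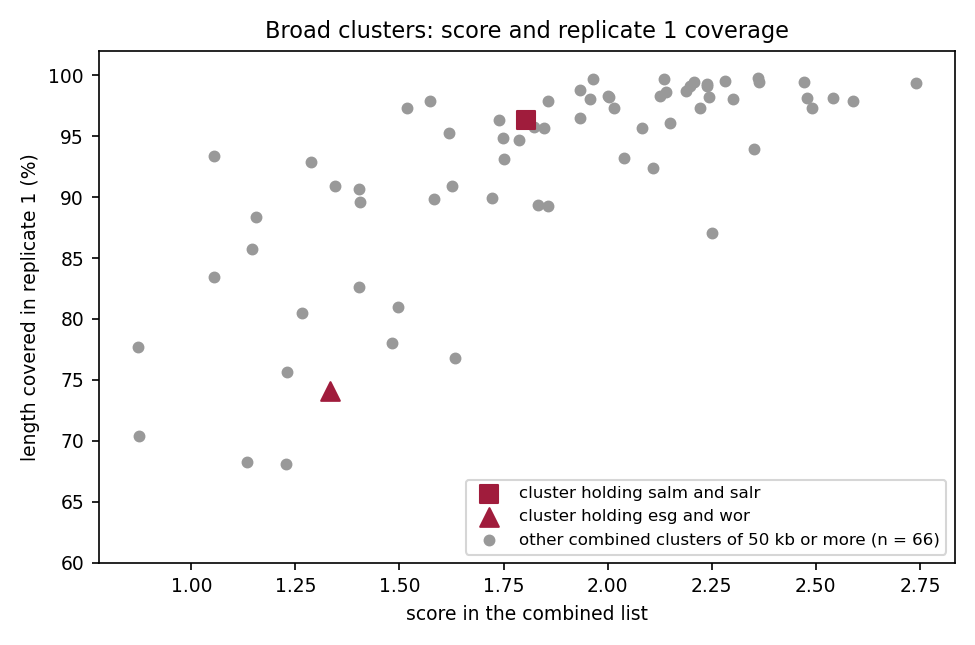
Percent of each combined cluster of 50 kb or more that replicate 1 covers (vertical axis, from 60%) against its score in the combined list (horizontal axis, no unit). Each point is 1 cluster, the square the one holding salm and salr, the triangle the one holding esg and wor, and the grey points the 66 others. The square lies at 96.3% among points of like score, and the triangle at 74.1% in the lower left.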

How the data were processed

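H3K27me3 ChIP and input libraries were made from whole larvae, 2 of each. Per the file headers, the authors deposited GFF3 lists of regions of significant enrichment on FlyBase release 5. Bowtie 0.12.7 is named in the submitters' processing notes. How clusters were called and at which threshold, how input was used and how the combined list was made were not given in the sources used here. The score in column 6 of the deposited lists has no stated scale. Input libraries have no list here and enter no comparison.

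Covered length, gaps and overlaps were computed in base pairs with scipy 1.17.1, pandas 2.3.3 and numpy 2.4.6 under Python 3.11.15, and matplotlib 3.10.9 drew the plots. The interval arithmetic was tested on simulated data and matched counting each base, with 0 disagreements in 200 simulations. A cluster counted as in a window at 1 bp of overlap.

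The RefSeq table is of release 6. Of its 3508 genes on 2L, 12 end beyond the release 5 arm and were left out. Whether 2L positions are the same in both releases was not tested, and release 6 coordinates are not printed. The table gives no strand or sequence, so promoters, motifs and proteins were not analysed here.

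Members, windows and gene lists were chosen with earlier results of these data known. Genes named beside the members are the 3 longest of each window, the first protein-coding gene on either side of the widest combined cluster, those with an end in a replicate gap of 500 bp or more, and 18 others on 2L in 4 lists; exceptions are marked in the text. Strand being unknown, either end of a gene stood for its start. Alternatives were a median score filter, a width minimum, closing of short gaps, other windows, a 50% overlap, each replicate alone and moved gene positions.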

Additional observations from a re-analysis of the deposited data

How the results depend on the processing

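All 5 member genes had 50% or more of their length covered in both replicates in the settings run, except that 4 did when positions were moved by 5 kb either way, an alternative chosen after seeing the data. The exception was sna. Values that moved are given for the spalt window and then for the snail family window. Keeping clusters at or above the median score left 6 and 16 pieces in replicate 1, a replicate overlap of 91.9% and 53.2%, and replicate 1 gaps of 10.9 and 64.4 kb inside the widest combined cluster. Keeping clusters of 5 kb or more left 5 and 6 pieces, an overlap of 89.5% and 40.5%, and gaps of 15.7 and 78.7 kb. Both filters can only remove sequence. Joining clusters closer than 1 kb left 7 and 21 pieces in replicate 1, with overlaps of 95.9% and 73.5%. Joining those closer than 5 kb left 1 and 5 pieces in replicate 1, overlaps of 99.7% and 89.9%, and replicate 1 gaps of 0 and 9.23 kb. In replicate 2 it left 1 piece in the spalt window, with gaps of 0 and 0.115 kb. Over the span of the widest combined cluster alone, coverage of the spalt domain was 98.0%, replicate 1 had 7 pieces there, replicate 2 had 1 piece in each domain, and the overlap was 96.6% and 74.4%. Windows longer by 20 kb on both sides gave 75.6% coverage at spalt, where they add no cluster, and an overlap of 69.8% at the snail family, where they add a replicate 1 cluster from 15250942 to 15252696 that replicate 2 lacks. Of 96 values from alternatives, 63 were counted as unmoved, coverage from a single replicate among them by construction. At the snail family window, where the SD over the replicates was 18.5, coverage of 62.1% to 88.3% counted as unmoved. The tally is therefore not a measure of stability. Without 1 replicate, coverage was 86.8% to 90.8% at spalt and 62.2% to 88.3% at the snail family. No paired analysis was possible because no values of the input group were analysed, and no result comes from a test. The promoter alternative was not run, as the gene table gives no strand. The unknown depth limits every comparison of pieces between replicates.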

Other observations

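Of the 33 replicate 1 pieces in the snail family window, 4 had exactly the same score, 0.638. They were 1470 to 2019 bp wide, and 73 clusters of the replicate 1 list carried this score, with widths of 1321 to 3738 bp. In that list, 888 of 2510 clusters (35.4%) shared their score with at least one other cluster, against 311 of 1819 (17.1%) in replicate 2. In the combined list 1896 of 4966 (38.2%) did. Within the spalt window, no clusters of the same list shared a score with each other. These ties were noticed after the lists had been examined, and their source was not tested.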
